A study of Homo sapiens with 6 samples.

Results

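CSPP1 is the gene from whose exons the circular RNA circCSPP1 is spliced. Here it was examined together with 9 protein-coding genes beside it in band q13 of human chromosome 8: ARFGEF1, COPS5, CPA6, PPP1R42, TCF24, SGK3, VCPIP1, MYBL1 and MCMDC2. These 10 genes were taken by their symbols from a table of 19727 genes, to ask whether CSPP1 moved alone when its circle was overexpressed. The cells were DU145, an established human prostate cancer cell line. In the lentivirus-circCSPP1 group (OE, 3 libraries, labelled as circCSPP1 overexpression) they carried a lentivirus that expresses the circle, and in the lentivirus-NC group (NC, 3 libraries, genotype labelled as normal) they carried the control lentivirus. Both stable lines were selected with puromycin according to the study's methods. Each group had its own vector, and neither a promoter for the circle nor separate cultures behind the 3 libraries of a group are given in the sources used here. The p-values therefore measure the spread between these libraries, which may be technical.

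CSPP1 encodes a centrosome and spindle pole associated protein that binds microtubules, works in cell division and in the primary cilium, and causes the ciliopathy Joubert syndrome when both copies are inactivated. A circular RNA arises when the end of a downstream exon is spliced back to the start of an upstream exon of the same gene, so that a circle and its linear parent share exons and differ at the back-splice junction. A circle has no poly(A) tail, and libraries made from polyadenylated RNA mostly leave circles out. The extraction protocol in the labels describes capture on poly-T beads, but it then speaks of poly(A)- or poly(A)+ fractions and of an adipose sample, which DU145 is not. Whether the RNA without a poly(A) tail was left out of these libraries is therefore uncertain, and the CSPP1 values may hold fragments of the circle.

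CSPP1 lies on the plus strand of chromosome 8 from 67062426 to 67196263 (GRCh38, GENCODE 29), a span of 133.838 kb with 7 annotated transcripts. Its longest coding transcript has 4367 nt in 29 exons. The study's probe for the back-splice junction matched the end of exon 11 joined to the start of exon 8 of that transcript. Exon 8 runs from 67105905 to 67105975 and has 71 nt, and exon 11 runs from 67115914 to 67116122 and has 209 nt. With exons 9 (94 nt) and 10 (58 nt) between them, these 4 coding-transcript exons add up to 432 nt, or 9.89% of the transcript. The same exons are numbers 6 to 9 of a shorter transcript with 26 exons and 3715 nt, of which they make up 11.6%. The probe also matched exon 13 joined to exon 10 of another transcript, with 22 exons and 3982 nt. There the exons between would add up to 1844 nt, so the junction alone does not fix the length. The study describes the circle as exons 8 to 11. A gene-level value sums over these and all other exons, so it does not separate the linear mRNA from the circle or from vector transcripts that contain the same exons. By qRT-PCR the study reported that its lentiviruses changed circCSPP1 in DU145 cells while linear CSPP1 mRNA did not change. It reported no change of CSPP1 protein either. Which of these RNAs the gene-level value follows was not tested.

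On both sides CSPP1 overlaps a gene on the opposite strand. COPS5 (67043079 to 67083783, minus strand) shares 21358 nt of its span with CSPP1, and ARFGEF1 (67173511 to 67343677, minus strand) shares 22753 nt. The other members lie 5.822 kb (PPP1R42) to 448.179 kb (MYBL1) away, with CPA6 alone on the far side of ARFGEF1 at 225.775 kb. Whether the counting used strand is not given in the sources used here, and without strand reads from overlapping genes on opposite strands cannot be told apart.

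Depth read from the steps between low values was 28900000 to 36500000 fragments per library, and the groups overlapped. Of 7 epithelial markers, 6 had a mean of at least 1 FPKM, and their summed level was 3889 to 4051 FPKM in NC and 3044 to 4033 FPKM in OE. These overlapping sums cover called changes in opposite directions (limma), with 5 of the 6 lower in OE and 1 higher. KRT8 was at 1112 FPKM in NC and 416 FPKM in OE on average (log2 fold change -1.42, adjusted p = 0.00056), and KRT7, which carries most of the OE sum, was at 1671 and 2310 FPKM (log2 fold change 0.45, adjusted p = 0.046). The luminal prostate genes KLK2, KLK3 and FOLH1 were listed at 0 in all 6 libraries. For markers of other cells, those with a mean of at least 1 FPKM were 1 of 6 fibroblast genes, 0 of 4 endothelial genes and 1 of 5 leukocyte genes, the last being CD68. The summed fibroblast genes were at 2.81 to 4.19 FPKM in NC and 1.06 to 2.31 FPKM in OE, and the part of these and of the epithelial markers in the results below was not tested.

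CSPP1 was measured at 9.11, 10.08 and 9.44 FPKM (fragments per kilobase of transcript, scaled to the library's total) in the NC libraries 1 to 3. In the OE libraries 1 to 3 it was at 14.47, 22.76 and 21.36 FPKM. The groups did not overlap, and OE library 1 lay between the NC libraries and the other OE libraries. The mean level was 9.54 ± 0.493 FPKM in NC and 19.5 ± 4.44 FPKM in OE (SD, n = 3 each), a ratio of 2.05. On the log2(FPKM + 1) scale, which understates changes of low genes, CSPP1 rose by 0.94 (standard error 0.17, 95% interval 0.54 to 1.33, limma, Benjamini-Hochberg adjusted p = 0.016 over 12322 genes). The exact permutation test gave p = 0.10, the smallest value it can give with 3 libraries against 3.

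If the reads came from the 4367 nt transcript, these levels correspond to about 1174, 1272 and 1505 fragments in NC and 2047, 3459 and 2714 in OE. Counting error is small at this depth beside the spread between OE libraries, whose coefficient of variation for CSPP1 was 22.7% against 5.17% in NC. The call for CSPP1 held without OE library 1 (limma adjusted p = 0.0010) or OE library 2 (0.036), and was lost without any 1 of the other libraries. The adjusted p was 0.075, 0.068 and 0.069 without NC library 1, 2 or 3 and 0.067 without OE library 3, with log2 fold changes of 0.91, 0.97, 0.93 and 0.86, and over all alternatives run it lay between 0.000478 and 0.077.

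Among the neighbours, 6 had a mean of at least 1 FPKM and were tested, and none passed an adjusted p of 0.05 in limma. At an unadjusted p under 0.05 the number of these 6 was 0 as well, against 3477 of all 12322 tested genes. CSPP1 was thus the 1 gene called among 7 tested members, and it was higher. Over all 12322 tested genes 11.4% were called and 4.69% were called as higher. The NC and OE values did not overlap in 1 of the 7 tested members, CSPP1, against 36.4% of all tested genes. The median log2 difference (OE minus NC) was -0.03 over the 7 tested members, and it was -0.028 over all tested genes.

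**Figure D1:**
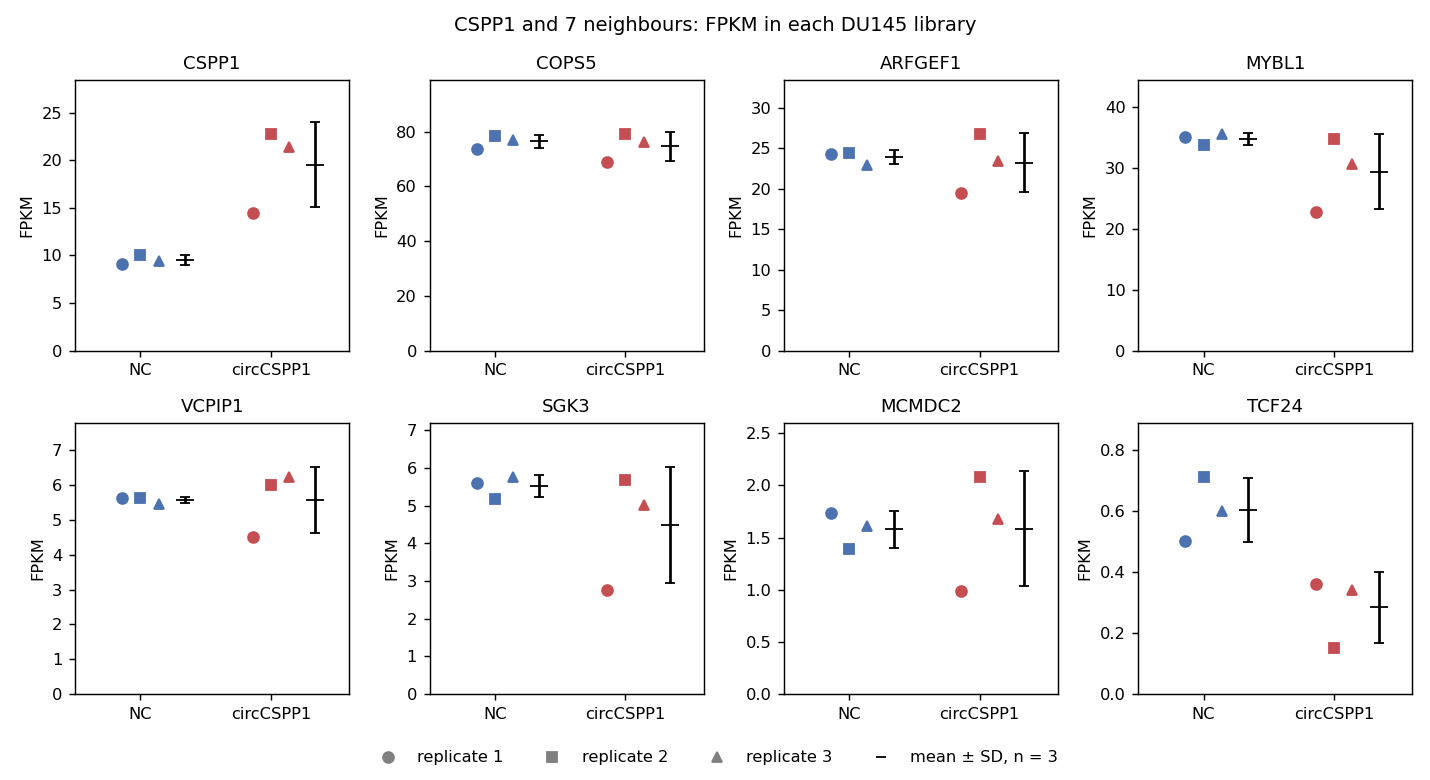
Level in FPKM of CSPP1 and 7 neighbours (PPP1R42 and CPA6 are left out) in the lentivirus-NC (blue) and lentivirus-circCSPP1 (red) libraries, 1 panel per gene with its own axis from 0. Points are libraries and black bars the mean ± SD of 3. CSPP1 was at 9.11 to 10.08 FPKM in NC and 14.47 to 22.76 FPKM in OE, while the groups of the 6 other tested genes overlapped. TCF24, under the filter, was at 0.50 to 0.71 FPKM in NC and 0.15 to 0.36 FPKM in OE.

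COPS5 is the catalytic subunit of the COP9 signalosome, the complex that removes NEDD8 from cullin ubiquitin ligases. It was the most abundant member, at 73.80, 78.47 and 76.89 FPKM in NC and 68.86, 79.15 and 76.07 FPKM in OE. The groups overlapped, and OE library 1 was the lowest of the 6. Its log2 difference was -0.03 (standard error 0.085, 95% interval -0.23 to 0.16, adjusted p = 0.84). This interval lies below the interval of the CSPP1 change, in a gene that overlaps the 5′ end of CSPP1 on the other strand.

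ARFGEF1 encodes a brefeldin A inhibited exchange factor that loads ARF GTPases with GTP at the Golgi. Its level was 24.34, 24.48 and 22.94 FPKM in NC and 19.47, 26.80 and 23.45 FPKM in OE. The lowest and the highest of the 6 values were both OE libraries. The means were 23.9 ± 0.852 and 23.2 ± 3.67 FPKM (SD, n = 3), and the log2 difference was -0.05 (95% interval -0.35 to 0.25, adjusted p = 0.84).

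MYBL1, a transcription factor of the MYB family known from male meiosis, was at 35.01, 33.62 and 35.51 FPKM in NC and at 22.67, 34.74 and 30.54 FPKM in OE. OE library 2 lay within the NC range and the other OE libraries lay under it. The log2 difference was -0.26 (standard error 0.15, 95% interval -0.61 to 0.098, adjusted p = 0.31), and it was -0.089 without OE library 1.

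VCPIP1, a deubiquitinase that binds the ATPase VCP and takes part in Golgi reassembly, was at 5.62, 5.63 and 5.47 FPKM in NC and 4.50, 5.99 and 6.23 FPKM in OE. The mean was 5.57 FPKM in both groups, with an SD of 0.0896 in NC and 0.937 in OE. Its log2 difference was -0.01 (95% interval -0.32 to 0.30, adjusted p = 0.97).

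SGK3 is a serine/threonine kinase that acts on endosomes downstream of phosphoinositide 3-kinase. It was at 5.61, 5.19 and 5.76 FPKM in NC and 2.75, 5.68 and 5.03 FPKM in OE, and OE library 1 stood apart below the other 5 libraries. The log2 difference was -0.29 (standard error 0.21, 95% interval -0.79 to 0.21, adjusted p = 0.42), and it was -0.038 without OE library 1. SGK3 shares 17950 nt of its span with C8orf44 on the same strand, and reads of these genes may be split between them. C8orf44 itself was at 5.24, 5.90 and 5.20 FPKM in NC and 3.64, 4.73 and 4.70 FPKM in OE (log2 difference -0.27, adjusted p = 0.21).

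MCMDC2, an MCM domain protein of meiotic recombination, was near the detection filter at 1.74, 1.39 and 1.61 FPKM in NC and 0.99, 2.08 and 1.68 FPKM in OE. The lowest and the highest value were again OE libraries. Its log2 difference was -0.02 (95% interval -0.42 to 0.38, adjusted p = 0.96), and 365 nt of its span lie opposite SNHG6.

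The remaining 3 members had a mean under 1 FPKM and did not enter the test. TCF24, a basic helix-loop-helix transcription factor, was at 0.50, 0.71 and 0.60 FPKM in NC and 0.36, 0.15 and 0.34 FPKM in OE. These groups did not overlap, with lower values in OE, but the levels rest on an estimated 13 to 54 fragments per library. In the fit with no filter its log2 difference was -0.32 (standard error 0.087, adjusted p = 0.11 from limma), and the exact permutation p was 0.10. PPP1R42, a regulatory subunit of protein phosphatase 1, was listed at 0 in every library but OE library 3, at 0.17 FPKM. CPA6, a secreted metallocarboxypeptidase, was listed at 0 in every library but NC library 2, at 0.14 FPKM. For these last 2 genes no difference was detectable at this depth.

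The order of the mean levels, which FPKM gives per length, was COPS5, MYBL1, ARFGEF1, CSPP1, VCPIP1, SGK3, MCMDC2 and TCF24 in NC as well as in OE. The ranges of VCPIP1 and SGK3 overlapped in both groups. SGK3 stayed under VCPIP1 in each OE library, while in NC library 3 it was above, at 5.76 against 5.47 FPKM. In NC, CSPP1 stood clear of ARFGEF1 above it and of VCPIP1 below it. In OE the CSPP1 range of 14.47 to 22.76 FPKM ran into the ARFGEF1 range of 19.47 to 26.80 FPKM, although CSPP1 stayed under ARFGEF1 in each library.

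A call in CSPP1 and none in its neighbours does not by itself show that they differed, so the ratio of CSPP1 to each tested neighbour was taken within each library. CSPP1 over COPS5 was 0.123, 0.128 and 0.123 in NC and 0.210, 0.288 and 0.281 in OE. CSPP1 over ARFGEF1 was 0.374, 0.412 and 0.412 in NC and 0.743, 0.849 and 0.911 in OE. For both overlapping genes the ratio was higher in each OE library than in any NC library. CSPP1 over MYBL1 went from 0.26, 0.30 and 0.27 in NC to 0.638, 0.655 and 0.699 in OE, a ratio of means of 2.41. Within OE this ratio had a coefficient of variation of 4.75%, where the CSPP1 level itself had 22.7% and the MYBL1 level 20.9%.

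The ratios to the less abundant neighbours separated the groups too. CSPP1 over VCPIP1 was 1.6, 1.8 and 1.7 in NC and 3.2, 3.8 and 3.4 in OE. CSPP1 over SGK3 was 1.62, 1.94 and 1.64 in NC and 5.26, 4.01 and 4.25 in OE. CSPP1 over MCMDC2 was 5.24, 7.25 and 5.86 in NC and 14.6, 10.9 and 12.7 in OE. For SGK3 and MCMDC2 OE library 1 gave the highest ratio, while for the other 4 neighbours it gave the lowest of OE.

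**Figure D2:**
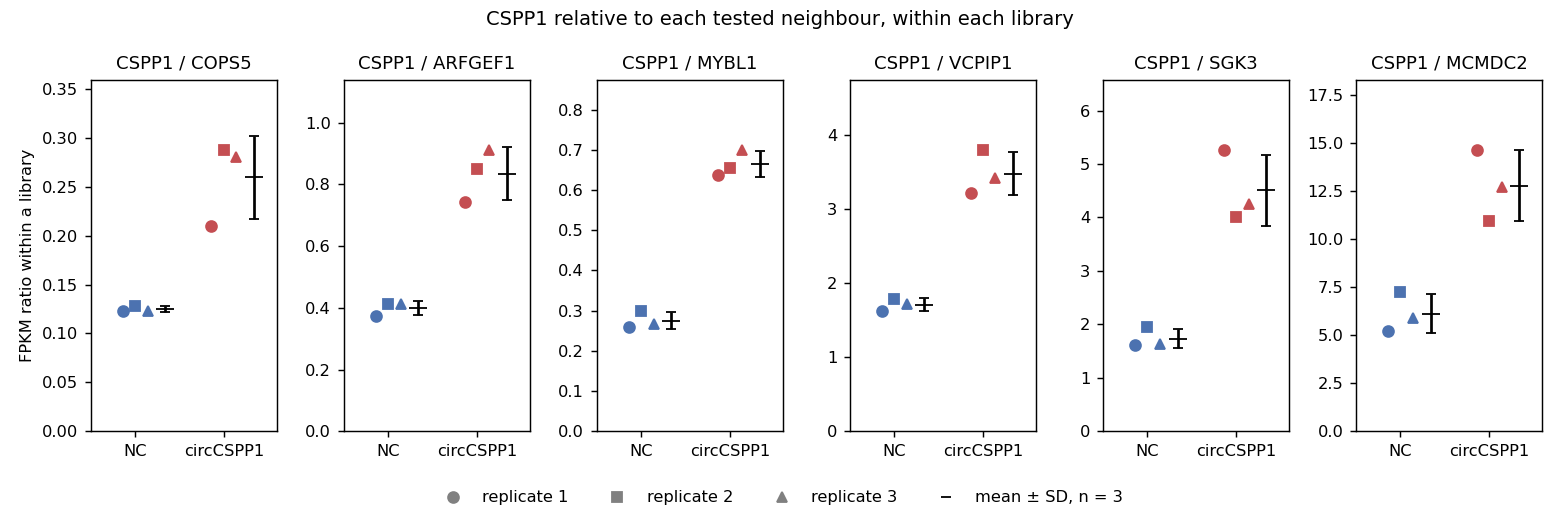
Ratio of the CSPP1 level to that of each of the 6 tested neighbours within each library (FPKM over FPKM, no unit), with 1 point per library, lentivirus-NC in blue, lentivirus-circCSPP1 in red and black bars for the mean ± SD of 3. The OE libraries lay above the NC libraries for each neighbour, and the ratio of the group means ran from 2.03 for VCPIP1 to 2.60 for SGK3.

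On the log2(FPKM + 1) scale the change of CSPP1 exceeded that of ARFGEF1 by 0.99 (95% interval 0.74 to 1.24) and that of COPS5 by 0.97 (0.59 to 1.35). The differences were 1.19 for MYBL1 (1.0 to 1.4), 1.23 for SGK3 (0.96 to 1.5), 0.95 for VCPIP1 (0.71 to 1.19) and 0.96 for MCMDC2 (0.67 to 1.24). In each of the 6 pairs compared, the interval lay above 0. All 6 pairs use the same CSPP1 values in the same libraries, so they are not independent comparisons. The exact permutation p was 0.10 in each pair, and 0.10 when adjusted over the 6 pairs, which is the floor of this design.

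The OE libraries were less alike than the NC libraries in all 7 tested members. OE library 1 was the lowest OE library for all 7, and the lowest of all 6 libraries for the 6 neighbours. Its value relative to the mean of OE libraries 2 and 3 was 0.514 for SGK3, 0.527 for MCMDC2, 0.656 for CSPP1, 0.695 for MYBL1, 0.736 for VCPIP1, 0.775 for ARFGEF1 and 0.887 for COPS5. Over all tested genes the median of this quotient was 0.968, and OE library 1 was the lowest of the OE group in 46.8% of them. The GC content of the longest coding transcript was 40.8% for CSPP1 and lay from 37.4% in MYBL1 to 49.4% in COPS5, the member whose OE libraries differed least.

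A loess fit on GC content and transcript length was then removed from every library, and the SD among OE libraries on the log2 scale fell in all 7. It went from 0.335 to 0.098 for CSPP1, from 0.305 to 0.029 for MYBL1, from 0.222 to 0.031 for ARFGEF1 and from 0.444 to 0.135 for SGK3. Among NC libraries the SD rose for SGK3 (0.066 to 0.0856), MYBL1 (0.0398 to 0.0642), VCPIP1 (0.0197 to 0.0268) and MCMDC2 (0.0999 to 0.122). For CSPP1, ARFGEF1 and COPS5 the SD among NC libraries fell. Why OE library 1 lay apart from the other OE libraries was not tested. The corrected CSPP1 levels were 3.32, 3.42 and 3.36 in NC and 4.25, 4.4 and 4.43 in OE, in log2 units. The log2 fold change of CSPP1 was then 0.99 with an adjusted p of 0.000478 (limma). The neighbour with the smallest adjusted p under this correction was MYBL1, with a log2 difference of -0.19 and an adjusted p of 0.054. After correction the NC and OE values of MYBL1 and of SGK3 (log2 difference -0.22, adjusted p = 0.127) no longer overlapped, with OE lower. The share of all genes whose groups did not overlap after correction was not counted. Before correction it was 36.4% of tested genes, so this separation is not read as a result about MYBL1 and SGK3. In that fit 28.7% of 12305 genes were called, so smaller adjusted p-values were not particular to these members.

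**Figure D3:**
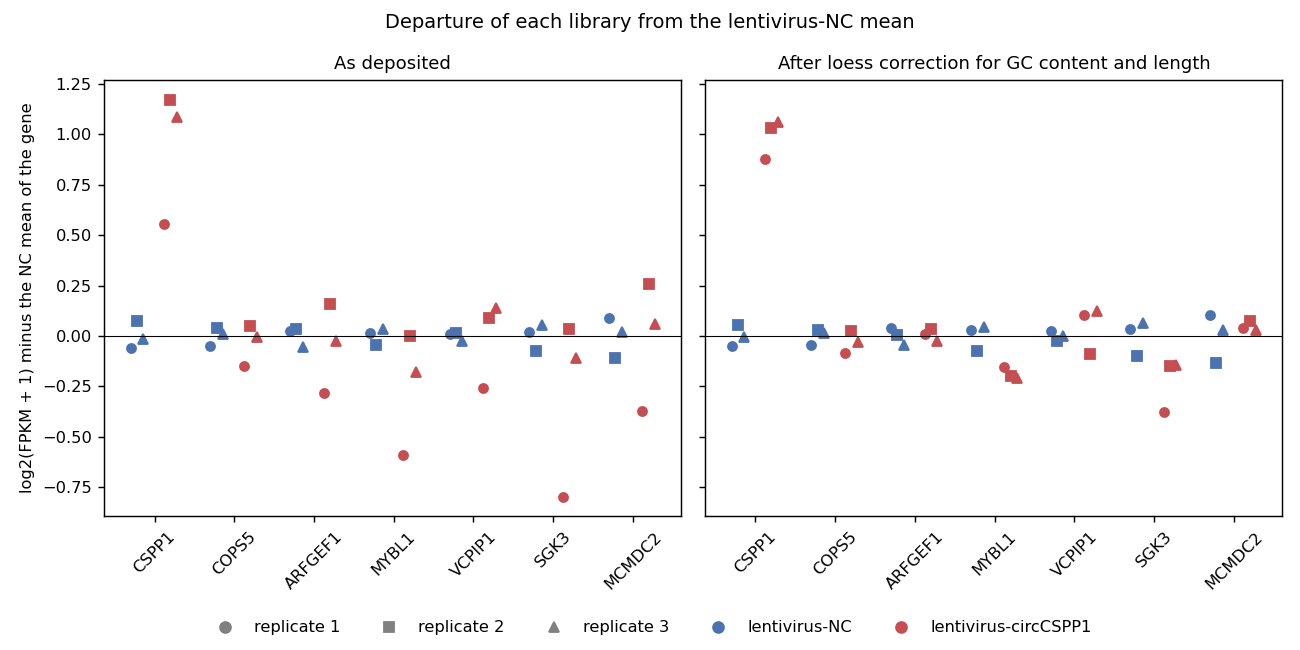
Log2(FPKM + 1) of the 7 tested members in each library minus the lentivirus-NC mean of the gene, from the deposited values (left) and after the loess correction (right), with 1 point per library, lentivirus-NC in blue and lentivirus-circCSPP1 in red. The red points draw together on the right, for CSPP1 from an SD of 0.335 to 0.098. The blue points draw together for CSPP1, ARFGEF1 and COPS5 and spread further for SGK3, MYBL1, VCPIP1 and MCMDC2. CSPP1 remains the member far above its NC mean.

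Genes called in either direction in a wider stretch of the chromosome were about as frequent as over the whole table. Within 5 Mb of the CSPP1 start the table had 39 genes, of which 19 were tested and 2 were called, CSPP1 and RRS1, both higher. That is 10.5% of the genes tested there, beside 11.1% within 10 Mb, 11.2% of the 418 genes tested on chromosome 8 and 11.4% of all tested genes, so this share is no result about the region. Genes called as higher made up 10.5% within 5 Mb, 5.56% within 10 Mb, 5.02% on chromosome 8 and 4.69% of all tested genes. The first of these shares rests on 2 genes, CSPP1 itself included. CSPP1 had the largest log2 fold change of the 19 genes within 5 Mb and of the 36 within 10 Mb, ranked 4 of 418 on the chromosome and 95 of 12322 in the table. RRS1, a ribosome biogenesis factor whose start lies 0.633 Mb below that of CSPP1 (66429028 to 66430733), was at 35.26, 33.12 and 31.02 FPKM in NC and 54.58, 49.76 and 47.34 FPKM in OE. Its groups did not overlap, and OE library 1 was here the highest of all. RRS1 rose by 0.59 on the log2 scale (standard error 0.096, limma adjusted p = 0.011, range over the alternatives 0.0017 to 0.063), with an adjusted p of 0.063 without NC library 2 and 0.060 without NC library 3. The change of CSPP1 exceeded that of RRS1 by 0.34, with a 95% interval of -0.37 to 1.06 that includes 0 and an exact permutation p of 0.40, so a difference between these changes was not shown. Unlike the members, RRS1 was chosen for this comparison after its values were seen. CSPP1 was the only called gene among the 10 members, but it was not the only called gene of the 5 Mb window.

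**Figure D4:**
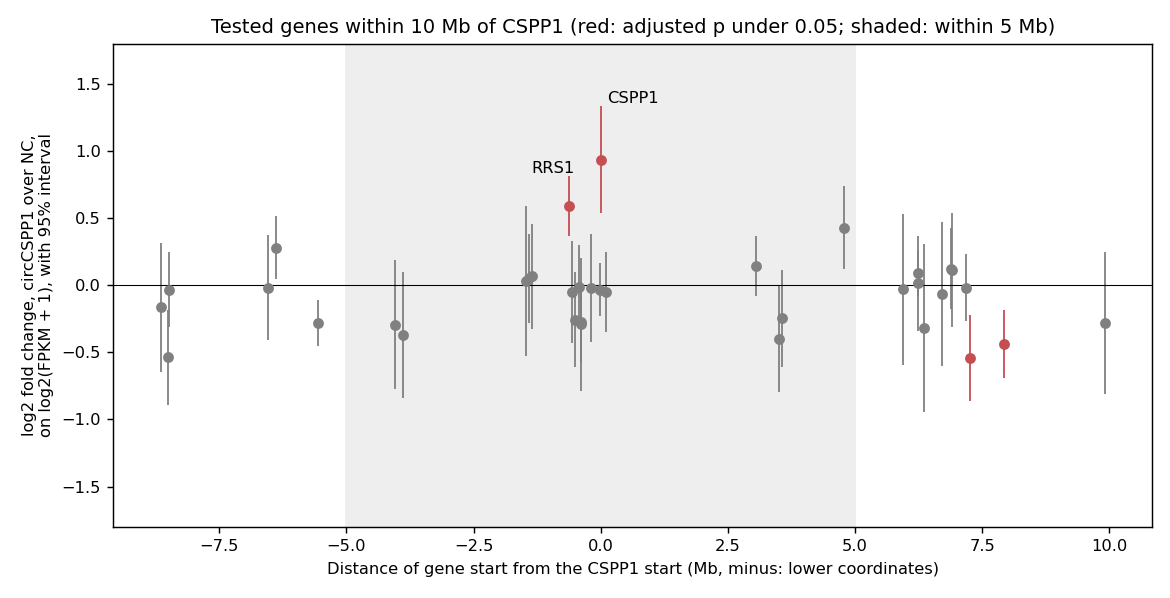
Log2 difference (OE minus NC, log2(FPKM + 1)) of the tested genes within 10 Mb of CSPP1 against the distance of their start from the CSPP1 start in Mb, with bars for 95% intervals, red for an adjusted p under 0.05 and shading for the 5 Mb window. CSPP1 at 0.94 and RRS1 at 0.59 are the called genes within 5 Mb, the unlabelled red points are GDAP1 and CRISPLD1, and the 6 tested neighbours among the members lay between -0.29 and -0.01.

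The families and partners of the members were counted by lists. COPS5 works in the COP9 signalosome, and 0 of its 10 listed genes passed an adjusted p of 0.05 in limma, 0 at an unadjusted p under 0.05 and 0 in the fit without moderation, with a median log2 difference of -0.19. For CSPP1, 12 partners at the centrosome and cilium tip were tested, CSPP1 included, with 1 higher (CSPP1) and 1 lower. The lower gene was PLEKHG6, an exchange factor for small GTPases that binds CSPP1, at 3.67, 3.32 and 3.45 FPKM in NC and 1.87, 2.05 and 1.87 FPKM in OE. The groups did not overlap, and PLEKHG6 fell by 0.61 on the log2 scale (standard error 0.10, adjusted p = 0.012, range over the alternatives 0.0080 to 0.071). That adjusted p was 0.071, 0.059 and 0.058 without NC library 1, 2 or 3, and 0.059 without OE library 3. The list of Joubert syndrome and the ciliary transition zone left out CSPP1. Of its 28 tested genes 0 passed in limma, 4 had an unadjusted p under 0.05 and 0 passed without moderation.

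ARFGEF1 belongs to the ARF exchange factors, which were listed with the ARF GTPases. Of 16 tested genes 1 was higher, ARF6, a GTPase of the plasma membrane and endosomes, at 81.77, 81.86 and 85.26 FPKM in NC and 95.84, 107.65 and 105.34 FPKM in OE. Its log2 fold change was 0.31 with an adjusted p of 0.049 (0.0060 to 0.189 over the alternatives), and the adjusted p was 0.091 to 0.189 when any library other than OE library 1 was left out. Of the 11 tested genes of the SGK and AKT kinases, their activators and regulators 1 was lower, SGK1, at 2.75, 2.45 and 2.74 FPKM in NC and 1.74, 1.43 and 1.71 FPKM in OE (log2 fold change -0.47, adjusted p = 0.032, and 0.018 to 0.137 over the alternatives). For SGK1 the adjusted p was 0.071 to 0.137 when any library other than OE library 1 was left out.

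Of VCP, the partner of VCPIP1, and its cofactors 16 were tested and 1 was lower. This was UBE4B, a ubiquitin chain elongation factor, at 29.97, 29.58 and 29.26 FPKM in NC and 19.27, 19.24 and 18.58 FPKM in OE. UBE4B fell by 0.61 on the log2 scale (standard error 0.084, adjusted p = 0.0066, and 0.0013 to 0.052 over the alternatives), with replicates much closer together than the groups, and its adjusted p was 0.052 without NC library 1. In limma 0 of 7 tested genes of the MYB family and the MuvB complex, 0 of 11 MCM genes and 0 of 5 metallocarboxypeptidases passed. An unadjusted p under 0.05 was found in 1, 4 and 1 of them, and 0, 1 and 0 passed without moderation. The shares called in these lists can be read against the 11.4% over all tested genes. Of all 12322 tested genes, 3477 had an unadjusted p under 0.05 in limma, and 834 (6.77%) passed without moderation. Each list except the Joubert list contains a member. Across the alternatives run, leaving out libraries included, the number called ran from 0 to 2 for the COP9 signalosome, 0 to 3 for the ARF list, 0 to 4 for VCP and its cofactors, 0 to 1 for the MYB and carboxypeptidase lists, and 0 to 5 for the CSPP1 partners, the Joubert, the MCM and the SGK and AKT lists.

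Over the 6 libraries, the genes whose log2(FPKM + 1) ran most like that of CSPP1 were SMURF2 (Pearson r = 0.9986), KIF3B (0.9972), TMEM14C (0.9967), GSR (0.9954) and TXNRD1 (0.9948). None of them is a member, and GSR is the only one on chromosome 8. The log2 differences were 0.61 for SMURF2, 0.45 for GSR and 0.49 for TXNRD1, with limma adjusted p-values of 0.020, 0.018 and 0.017. They were 0.31 for KIF3B and 0.26 for TMEM14C, which did not pass (adjusted p = 0.078 and 0.075). The choice by likeness to CSPP1 fixed the direction of all 5 and favoured groups that stand apart. OE library 1 was the lowest of OE in all 5, for example in SMURF2 at 24.69, 32.27 and 30.70 FPKM. It was also the lowest of OE in CSPP1, so the choice favoured this order and it is no separate result. The 6 tested neighbours had coefficients with CSPP1 from -0.25 for MYBL1 to 0.33 for VCPIP1. These coefficients are descriptions over 6 points that share 2 groups.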

How the data were processed

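RNA from DU145 cells was sequenced in paired-end mode, 3 libraries per group. Per the labels it was captured on poly-T beads, but the same protocol mentions poly(A)- or poly(A)+ fractions and an adipose sample, so the selection is uncertain. The authors deposited 1 table of FPKM values for 19727 genes, rounded to 2 decimals. The submitters' processing notes name the build hg38, and the aligner, quantifier, annotation and strand setting are not given in the sources used here. FPKM is relative to gene length and library total, so that a large change elsewhere shifts a gene's value.

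Libraries were grouped by their labels. The members and gene lists were chosen with earlier results of these data known, and RRS1, PLEKHG6, ARF6, SGK1, UBE4B and the 5 most alike genes were named by rules of this kind (called in a list or within 5 Mb, or highest Pearson r). Genes with a mean FPKM of at least 1 (12322) were tested on log2(FPKM + 1) with limma 3.58.1 in R 4.3.3 (eBayes with a trend, two-sided, Benjamini-Hochberg over all 12322 genes, called at an adjusted p under 0.05), which was tested on simulated data. The other 7405 genes were not tested. Changes of pairs of genes were compared on within-library differences, with 95% intervals and exact two-sided permutation tests over the 6 libraries. Coordinates, lengths and GC content came from GENCODE 29 on GRCh38, which may not be the authors' annotation. Depth was read as the step at which FPKM times transcript length became whole (tolerance 0.15, met by 90.8% to 97.8% of values). The alternatives were other pseudocounts (0.1, 0.01), filters (none, mean of 5), scalings (TPM, median-ratio, quantile), variance models, thresholds (unadjusted p under 0.01 and a log2 fold change of 1.5), windows (2 and 10 Mb), a replicate block, a loess correction (span 0.3) and leaving out each library. Part of the luminal prostate marker list is not reported here. A single gene had a value of 0 in a library although its median was at least 5 FPKM. Figures were drawn with matplotlib 3.10.9.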

Additional observations from a re-analysis of the deposited data

How the results depend on the processing

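The log2 fold change of CSPP1 lay between 0.82 and 1.13 under each alternative, leaving out libraries included (0.82 to 1.13, adjusted p 0.0010 to 0.075 from limma). It was no longer past the threshold with no filter (0.94, adjusted p = 0.058), with no moderation of the variance (0.94, adjusted p = 0.077), and without any 1 of the NC libraries or OE library 3. The number of members called was 0 with no filter, 0 with no moderation, 0 at the study's thresholds and 0 to 1 without a library, and no neighbour was called under any alternative run. The number of genes called near CSPP1 was 1 with no filter, 1 with no moderation, 4 within 10 Mb (GDAP1 and CRISPLD1 were the added ones, both lower), 3 after quantile normalization, 3 after loess and 0 to 2 without a library. The differences between CSPP1 and its neighbours kept their sign and an interval above 0 under all alternatives run, from 0.85 (MCMDC2) to 1.37 (SGK3).

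Changes near 0 that were not called reversed sign for VCPIP1 (TPM 0.0048, median-ratio 0.025, quantile 0.084, loess 0.047, without libraries -0.084 to 0.11), MCMDC2 (median-ratio 0.0040, quantile 0.12, loess 0.048, without libraries -0.16 to 0.16), COPS5 (median-ratio 0.0083, without libraries -0.076 to 0.023) and ARFGEF1 (loess 0.0056, without libraries -0.16 to 0.066). The cause was not tested. Over all genes 1399 were called, 834 with no moderation, 3526 after loess, and without a library 300 (NC 1), 317 (NC 2), 407 (NC 3), 3512 (OE 1), 1160 (OE 2) or 450 (OE 3). The share of higher genes among the called was 41.3%, against 49.1% after median-ratio and 47.7% after quantile scaling.

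Same-numbered libraries did not deviate together (r = 0.073, 0.0065 and 0.057) and not every library correlated best with its own number, so the replicate numbers were not taken as pairs. With the replicate number as a block CSPP1 kept a log2 fold change of 0.94 (adjusted p = 0.018), and 923 genes were called.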
